A study of Cyprinus carpio 'koi' with 9 samples.

Results

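Melanocortin 5 receptor (Mc5r) is named for 2 assembled genes in the skin transcriptome of Koi carp, a carp bred for its colors, and 3 long noncoding RNAs (lncRNAs) were placed near them. These 5 features, of 446614 assembled genes listed in every library, are described here. They were chosen by name: the study's table of lncRNAs and their neighbouring coding genes gives the symbol Mc5r to Ccr_5622451 and Ccr_112176121, and pairs Ccr_lnc5622421 and Ccr_lnc5625301 with the former and Ccr_lnc5622441 with the latter. That table covers only lncRNAs the study had already called as differing among the colors of these same libraries. Ccr_5622451 is also on the study's enrichment list for melanocortin receptor activity, which covers coding genes it had called in the same way. The color differences of the lncRNAs and of Ccr_5622451 given below thus describe features already called for such a difference, and are no independent evidence of it. The digits of each name match exactly 1 of the identifiers in the expression tables that start with TRINITY_GG, and identifiers that start with TRINITY_DN were not searched. The matches are TRINITY_GG_56224_c5_g1 (2032 bp) and TRINITY_GG_112176_c12_g1 (534 bp) for the genes. For Ccr_lnc5622421, Ccr_lnc5622441 and Ccr_lnc5625301 they are TRINITY_GG_56224_c2_g1 (574 bp), TRINITY_GG_56224_c4_g1 (596 bp) and TRINITY_GG_56253_c0_g1 (393 bp). Ccr_5622451, Ccr_lnc5622421 and Ccr_lnc5622441 therefore carry the same cluster name, GG_56224, which Trinity gives to reads that lay together on the genome. The study nonetheless pairs Ccr_lnc5622441 with Ccr_112176121, whose cluster name is GG_112176, and this difference in placement was not resolved.

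Mc5r is a G protein-coupled receptor of the melanocortin family, whose members bind alpha-melanocyte-stimulating hormone and related peptides and raise cyclic AMP in the cell. Its relative Mc1r is the receptor through which this hormone acts on melanin-producing pigment cells, while MC5R is best known in mammals for its part in the secretion of skin glands. An lncRNA is a transcript without a recognised coding frame, and lncRNAs that lie beside a coding gene are often examined as possible regulators of that gene in cis.

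The skin came from 3 Koi carp of the FFRC strain that carried black, white and red patches, with no other treatment than the anaesthetic used at sampling. RNA was sequenced from black (BS), red (RS) and white (WS) skin as 3 poly(A) libraries per color, numbered 1 to 3 in the labels and called black 1, red 1, white 1 and so on here, giving 9 libraries with total expected counts of 13773868 to 25002494 read pairs. The question was how the level of each feature differed among the colors, between libraries of the same number, and together with its neighbours. Skin is bulk tissue here, so fewer cells of a type and less RNA per cell cannot be told apart, and a patch can hold tissue other than pigment cells. The 21 features that the study lists under muscle terms summed to 20903.23 FPKM (fragments scaled by effective length and library depth) in black 1 and to between 9.72 and 793.62 FPKM in the other 8 libraries, so black 1 stood apart. Red 1 had the lowest TMM scaling factor, 0.474, against 0.71 in black 1 and 0.864 to 1.41 in the rest. Replicate number 2 had longer fragments, 347.1 to 359.7 bp against 283.9 to 295.5 bp, which shortens the effective length of a short feature and raises its FPKM for a given count.

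The authors' PCR primer list holds a pair under the name Ccr_lnc5622451. Among identifiers that start with TRINITY_GG, its digits match only the Mc5r gene TRINITY_GG_56224_c5_g1. The name has the prefix of an lncRNA, however, and the list does not say whether this gene or an lncRNA is meant. The pair is shown because it is the only sequence used here whose name points to this locus, and it was not placed on a genome.
Ccr_lnc5622451 forward primer: atgaaacgggactggagttg
Ccr_lnc5622451 reverse primer: accaacccagtgactccaag

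The Mc5r gene Ccr_5622451 was the most highly counted of the 5, with 804 expected read pairs in all, and nearly all of them came from black and red skin. Its expected counts were 7, 211 and 37 in black 1, black 2 and black 3, and 0, 415 and 133 in red 1, red 2 and red 3. In white skin the counts were 0, 1 and 0. In FPKM these were 0.27, 5.04 and 1.15 in black, 0, 11.99 and 5.01 in red, and 0, 0.03 and 0 in white skin. Every black library lay above every white library, whereas red overlapped with white because red 1 was at 0. The spread within a color was as large as its mean, at 2.15 ± 2.54 FPKM in black, 5.67 ± 6.02 FPKM in red and 0.01 ± 0.017 FPKM in white skin (SD, n = 3 each). Replicate number 2 held 77.99% of the counts, replicate 3 held 21.14% and replicate 1 held 0.87%. The number 2 libraries were thus the highest of their color in black, red and white skin. The expected count of Ccr_5622451 was whole, within 0.005, in 6 of the 6 libraries above 0. Counts were not whole in 2 of 4 such libraries for Ccr_112176121 and in 3 of 4 for Ccr_lnc5622421. The same held in 2 of 5 for Ccr_lnc5622441 and in 1 of 4 for Ccr_lnc5625301. Part of the read pairs of these features was shared out by the authors' estimate, which counting intervals do not cover.

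**Figure D1:**
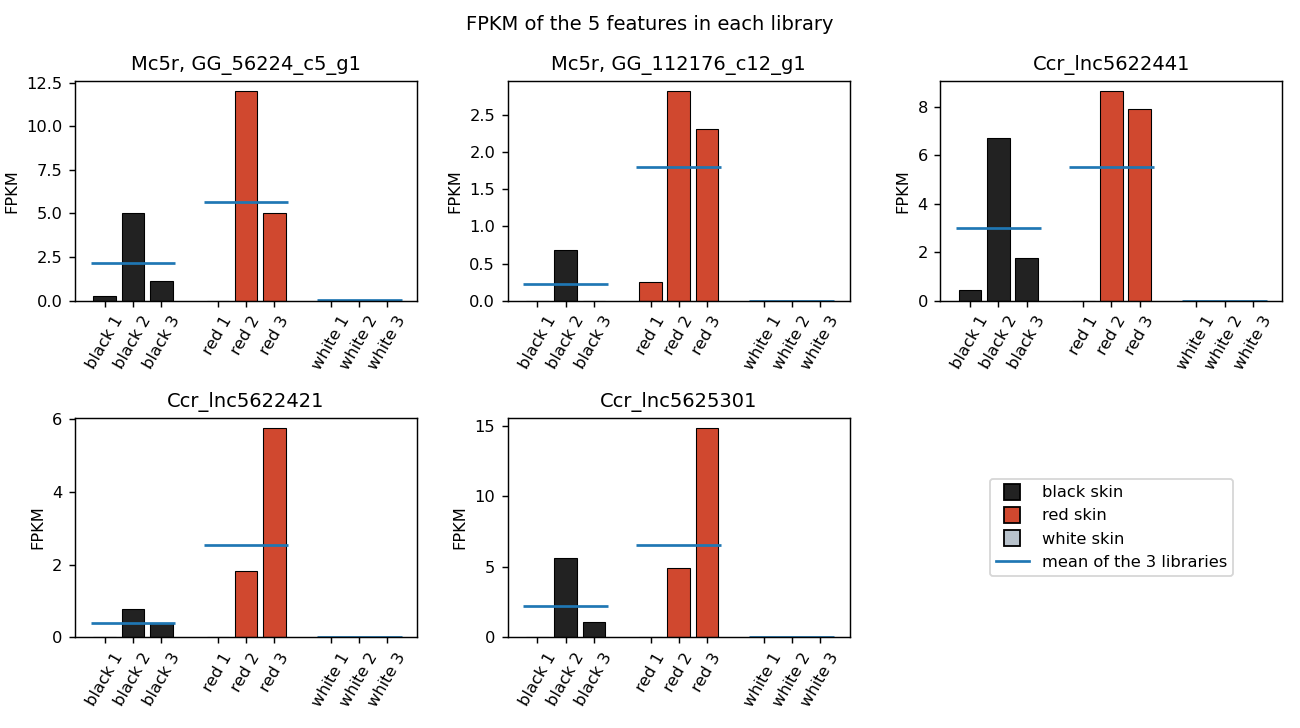
FPKM (y axis, linear, a separate scale in each panel) of the 2 Mc5r genes and the 3 lncRNAs in each of the 9 libraries, with bars in black, red and grey for black, red and white skin and a blue line at the mean of the 3 libraries. White skin was at 0 in every panel except for 0.03 FPKM of Ccr_5622451 in white 2, red 1 was at or near 0, and replicates 2 and 3 held the high values.

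In black against white skin every black library exceeded every white library for Ccr_5622451, although black 1 held only 7 counts. Summed over 3 libraries, Ccr_5622451 had 255 counts in black against 1 in white skin, a ratio of CPM of 229.9 with a 95% counting interval of 40.9 to 9116, which covers counting error only. It was higher in black in 3 of 3 same-numbered pairs and the groups did not overlap, as was also true of 0.698% of all features counted in these libraries. A higher value in black in 3 of 3 pairs was found for 2.08% of them. The exact two-sided permutation test on FPKM gave p = 0.1, which is the smallest p that 3 against 3 libraries allow. None of the 5 features passed the expression filter in this comparison, which asks for 3 libraries above a minimum. Among the 68812 features that did pass, edgeR's quasi-likelihood test called 0 (0%), with 262 at an unadjusted p under 0.05, and DESeq2 and the edgeR exact test called 43 and 44. In the fit without the filter, in which 0.134% of 290342 features were called, Ccr_5622451 was the 1 of 5 called, with a log2 fold change of 7.55 ± 1.46 (SE) and a quasi-likelihood FDR of 0.000523. That call was lost without black 2 (5.80, FDR 0.599), without replicate 2 (7.31, FDR 0.313), without replicate 3 (7.52, FDR 0.061), with the edgeR exact test (FDR 0.133), with limma on log2 FPKM (FDR 0.855 and 0.877), and in the fit of all 9 libraries with the filter (7.59, FDR 1). It held without black 1, the library with the muscle signal, at 8.09 and an FDR of 6.47e-05.

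Red against white skin gave the larger ratio for the same gene. Ccr_5622451 had 548 counts in red against 1 in white skin, a CPM ratio of 551 (95% counting interval 98.6 to 21819). It was higher in red in 2 of 3 same-numbered pairs and equal, at 0, in the pair numbered 1. The exact two-sided permutation test gave p = 0.4. With the filter, 0 of 66740 features were called (0%; 271 at an unadjusted p under 0.05, with 58 called by DESeq2 and 53 by the edgeR exact test), and none of the 5 was among those tested. Without the filter 0.124% of 279939 features were called, and Ccr_5622451 was again the 1 of 5, at a log2 fold change of 8.48 ± 1.30 and a quasi-likelihood FDR of 3.87e-07. Leaving out any 1 library or replicate number kept this call, with FDRs from 5.62e-09 to 0.0118, whereas it was lost with limma on log2 FPKM (FDR 0.861 and 0.893) and in the fit of all 9 libraries with the filter (FDR 1). The black and red comparisons share the white libraries and are not independent of each other.

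Between red and black skin the difference of Ccr_5622451 lay within the replicate spread. The summed CPM ratio of red to black was 2.398 (95% counting interval 2.06 to 2.79), but the pairs went different ways. In replicate 2 red was 2.38-fold above black (2.01 to 2.83), and in replicate 3 it was 4.38-fold above (3.03 to 6.49). In replicate 1 the order was the reverse, with 7 counts in black 1 and 0 in red 1, so black was at least 2.59-fold higher against a floor of 3 counts in red 1. Scaled by the TMM factors these values became 1.46 (1.23 to 1.73), 4.92 (3.40 to 7.29) and at least 1.73. This gene and Ccr_lnc5622441 were the 2 of 5 features that passed the filter here, where 0 of 65727 features were called (0%), with 216 at an unadjusted p under 0.05, 33 called by DESeq2 and 24 by the edgeR exact test. The quasi-likelihood fit gave Ccr_5622451 a log2 fold change of 0.88 ± 1.59 with an FDR of 1, and the exact two-sided permutation test gave p = 0.7. Without red 2 the fitted value fell to -0.07, so the sign itself rested on that library.

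**Figure D2:**
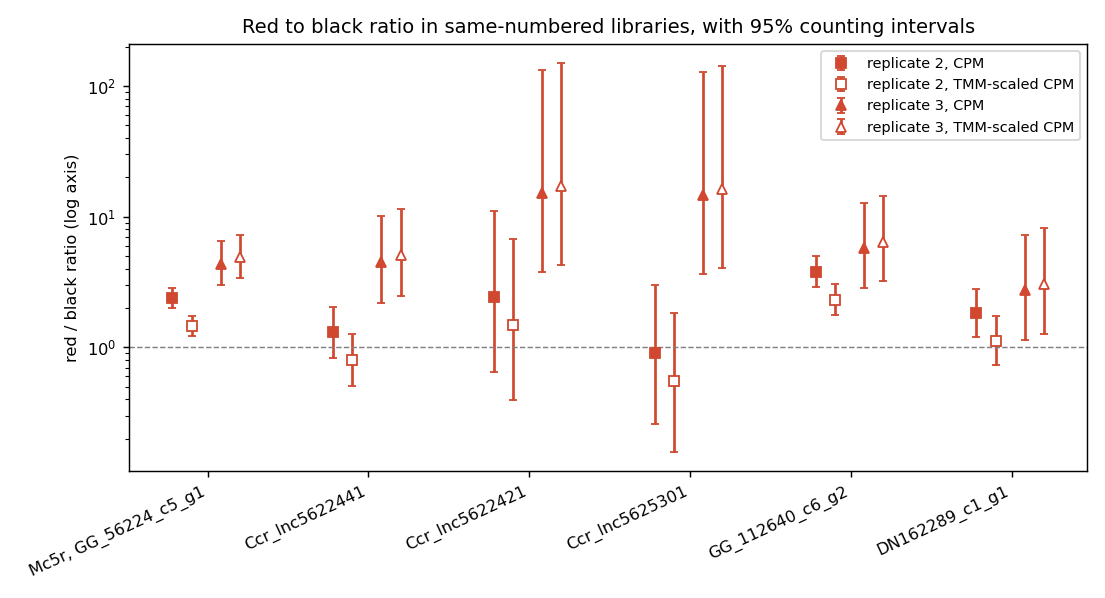
Red to black ratio (y axis, log scale, dashed line at equality) in the same-numbered libraries 2 (squares) and 3 (triangles) for Ccr_5622451, the 3 lncRNAs and the other receptor features TRINITY_GG_112640_c6_g2 and TRINITY_DN162289_c1_g1, with 95% counting intervals, from CPM (filled) and TMM-scaled CPM (open). In replicate 3 all 6 features were higher in red, from 2.74-fold to 15.2-fold in CPM, and in replicate 2 the lncRNAs straddled equality.

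The other Mc5r gene, Ccr_112176121, was barely counted, with 23.08 read pairs over the 9 libraries, and most of them were red. Its expected counts were 1, 10.5 and 8.58 in red 1, red 2 and red 3, 0, 3 and 0 in black, and 0 in all 3 white libraries. In FPKM this was 0.25, 2.82 and 2.32 in red (1.80 ± 1.36, SD, n = 3) and 0.68 in black 2, the only black library above 0. Red lay above white in every library, a separation that 0.447% of the features counted in those libraries also showed, and the exact two-sided permutation test gave p = 0.1. The summed red level was at least 6.71-fold the white level, against a floor of 3 counts over the white libraries. Red exceeded black in 3 of 3 pairs, as did 3.02% of features counted in those libraries, with a summed CPM ratio of 7.44 (95% counting interval 2.21 to 39.1) and p = 0.2 by the exact two-sided permutation test. Its quasi-likelihood fits, made without the filter, called it in 0 of 3 comparisons, where 0.124% of features were called in red against black. In the libraries where both Mc5r genes were above 0 (black 2, red 2 and red 3), its FPKM was 0.135, 0.235 and 0.463 of that of Ccr_5622451. Red 1 was the only library in which Ccr_112176121 was counted and Ccr_5622451 was not, on a single read pair.

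Of the lncRNAs, Ccr_lnc5622441 had the most counts, 131.79 in all, and a level close to that of the Mc5r gene in its cluster. Its expected counts were 2, 40 and 10 in black 1, black 2 and black 3, 0, 43.08 and 36.71 in red 1, red 2 and red 3, and 0 in every white library. In FPKM these were 0.43, 6.73 and 1.78 in black (2.98 ± 3.32, SD, n = 3) and 0, 8.64 and 7.90 in red skin (5.51 ± 4.79). As for Ccr_5622451, black and white did not overlap, the pairs stood at 3 of 3 for black over white, and red 1 tied with white at 0. Of all features counted in the black and white libraries, 0.698% had black wholly above white and 2.08% were higher in black in 3 of 3 pairs. In black 1 the separation rested on 2 counts, under the floor of 3 counts. Against a floor of 3 counts over the white libraries, Ccr_lnc5622441 was at least 15.6-fold higher in black and at least 26.8-fold higher in red skin. The exact two-sided permutation tests gave p = 0.1 for black against white and p = 0.4 for red against white. In the fits without the filter the log2 fold changes were 7.01 (quasi-likelihood FDR 0.697) and 7.63 (FDR 0.144), so neither was called, and red against white was called when red 1 was left out (8.35, FDR 0.0337). Red against black passed the filter and gave 0.57 ± 1.42 with an FDR of 1. In CPM red was 1.30-fold black in replicate 2 (95% counting interval 0.827 to 2.06) and 4.51-fold in replicate 3 (2.20 to 10.2), and after TMM scaling the former became 0.795 (0.505 to 1.26), so its direction turned with the scaling.

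Ccr_lnc5622421 and Ccr_lnc5625301, which the study places beside Ccr_5622451, were counted in black 2, black 3, red 2 and red 3 and at 0 in the other 5 libraries. Ccr_lnc5622421 had 4.22 and 2 counts in black 2 and black 3 and 8.31 and 24.81 in red 2 and red 3, or 0.78, 0.38, 1.83 and 5.76 FPKM. Ccr_lnc5625301 had 8 and 2 counts in the same black libraries and 6 and 23.69 in the red, or 5.63, 1.06, 4.90 and 14.85 FPKM. Red 3 was the highest library of either lncRNA, whereas red 2 was the highest of Ccr_5622451. For Ccr_112176121 and Ccr_lnc5622441 the highest library depended on the unit, being red 2 in FPKM and red 3 in CPM (0.563 against 0.509 and 2.41 against 2.09). The effective length of Ccr_lnc5625301 was 56.9 to 64.4 bp in replicate 2 and 101.8 to 112.1 bp elsewhere, so that 1 read pair was worth more FPKM in red 2 and black 2. From red 3 to black 3 the CPM ratio was 15.2 (95% counting interval 3.80 to 133) for Ccr_lnc5622421 and 14.6 (3.63 to 128) for Ccr_lnc5625301. From red 2 to black 2 it was 2.42 for Ccr_lnc5622421 and 0.908 for Ccr_lnc5625301, and both intervals included 1. Neither lncRNA was called in any of the 3 comparisons without the filter, nor under the alternatives, with FDRs of 0.783 and above where an FDR was given. DESeq2 gave none for either lncRNA in black against white or in red against black. The summed red level of Ccr_lnc5622421 was at least 11.1-fold the white level, against a floor of 3 counts over the white libraries.

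Across the 5 features the counts lay in the same few libraries. Their summed FPKM was 35.84 in red 3, 30.18 in red 2, 18.86 in black 2 and 4.37 in black 3, and at most 0.7 in the other 5 libraries. Short features weigh heavily in a sum of FPKM, with 14.85 of the FPKM in red 3 from Ccr_lnc5625301, and by summed expected count the order was red 2 (482.89), black 2 (266.22), red 3 (226.79) and black 3 (51). All 5 were above 0 in black 2, red 2 and red 3, 4 in black 3, 2 in black 1, 1 each in red 1 and white 2, and 0 in white 1 and white 3. The single white read pair, among 52654494 assigned to the white libraries, belonged to Ccr_5622451.

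Covariation among the 5 features was described over the 9 libraries, which share replicate numbers and therefore are not independent, so no p is given. Ccr_5622451 and Ccr_lnc5622441, of the same cluster, moved most closely together of the lncRNA pairs with this gene, with Pearson's r = 0.913 and Spearman's rho = 0.956 in FPKM, and r = 0.98 on log2(FPKM + 1). Relative to the mean of each replicate number on the log scale, r was 0.979. For Ccr_5622451 with its listed neighbours Ccr_lnc5622421 and Ccr_lnc5625301, r was 0.52 and 0.572 and rho was 0.873 and 0.854. Red 3 set these lower values for Ccr_lnc5622421, with r = 0.993 without it. Ccr_lnc5622421 and Ccr_lnc5625301 followed each other at r = 0.971 although their cluster numbers differ. Both were above 0 in only 4 libraries, and r was 0.863 without red 3. Ccr_112176121 and Ccr_lnc5622441, which the study pairs as neighbours, had r = 0.903 and rho = 0.753, and the 2 Mc5r genes had r = 0.912 and rho = 0.687. The cluster names of Ccr_112176121 and Ccr_lnc5622441 differ, and whether they lie together on the genome was not tested. Leaving out the 2 libraries farthest from the median of Ccr_5622451 (red 2 and black 2) gave r of 1.0, 0.987 and 0.987 with Ccr_lnc5622441, Ccr_lnc5622421 and Ccr_lnc5625301. Among the libraries left, red 3 stood far above the rest for each of these features (Ccr_5622451 at 5.01 FPKM, against at most 1.15). These r values therefore rest mostly on red 3 and do not show closer covariation. Libraries where both features were 0 weigh in all of these values: 3 of 9 for each pair of Ccr_5622451 with an lncRNA, and 5 of 9 for Ccr_lnc5622421 with Ccr_lnc5625301.

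**Figure D3:**
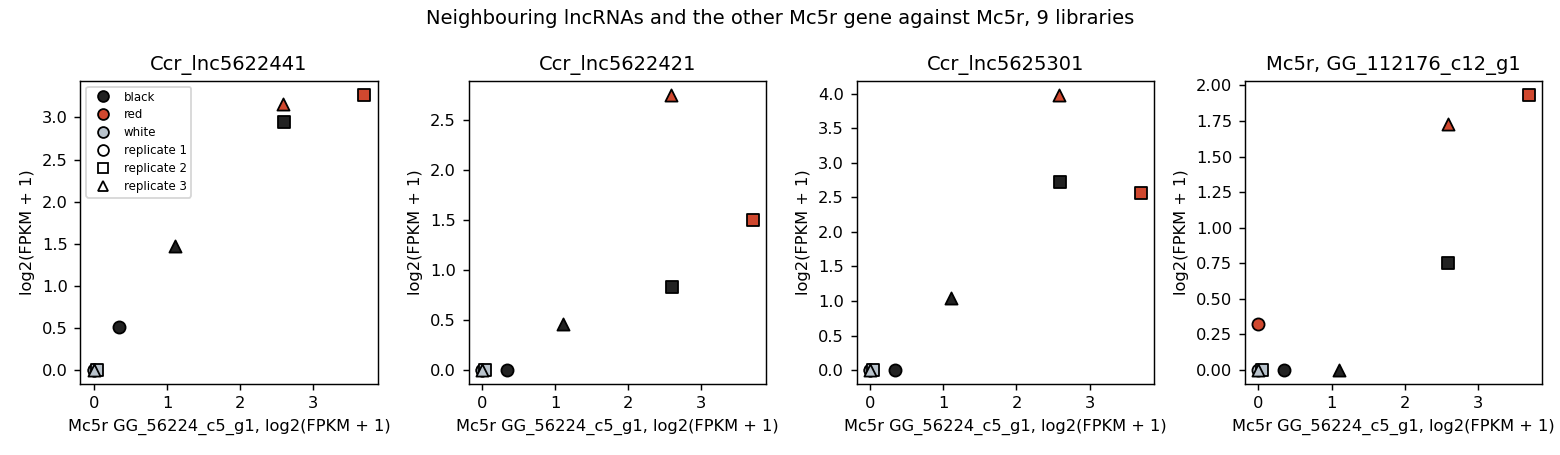
Each lncRNA and the Mc5r gene Ccr_112176121 (y axis, log2(FPKM + 1)) against Ccr_5622451 (x axis, same unit) in the 9 libraries, with color for skin color and shape for replicate number, the white libraries lying on top of each other at or near the origin. Ccr_lnc5622441 lies near a straight line (r = 0.98), while red 3 lies high for Ccr_lnc5622421 and Ccr_lnc5625301.

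Within a library, the level of an lncRNA relative to Ccr_5622451 removes the depth and scaling of that library. The FPKM of Ccr_lnc5622441 was 1.59, 1.34 and 1.55 times that of Ccr_5622451 in black 1, black 2 and black 3, 0.721 times in red 2 and 1.58 times in red 3. The 95% counting interval in red 2 (0.513 to 0.987) did not overlap with that in red 3 (1.07 to 2.30), and these intervals cover counting error only. The black intervals overlapped, and those in black 1 (0.162 to 8.38) and black 3 (0.69 to 3.19) were wide, resting on 2 and 10 counts of the lncRNA. For Ccr_lnc5622421 the ratio was 0.155, 0.33 and 0.153 in black 2, black 3 and red 2 and 1.15 in red 3, with an interval in red 3 (0.723 to 1.78) above those in black 2 and red 2. For Ccr_lnc5625301 it was 1.12, 0.922 and 0.409 in black 2, black 3 and red 2 and 2.96 in red 3 (1.86 to 4.66). The interval of Ccr_lnc5625301 in red 3 lay above that in red 2 (0.149 to 0.898) and overlapped with those in black 2 (0.476 to 2.24) and black 3 (0.108 to 3.58). The kit used does not mark strand, so reads of a feature and of one antisense to it cannot be told apart, and whether the 3 features of cluster GG_56224 are separate transcripts was not tested.

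**Figure D4:**
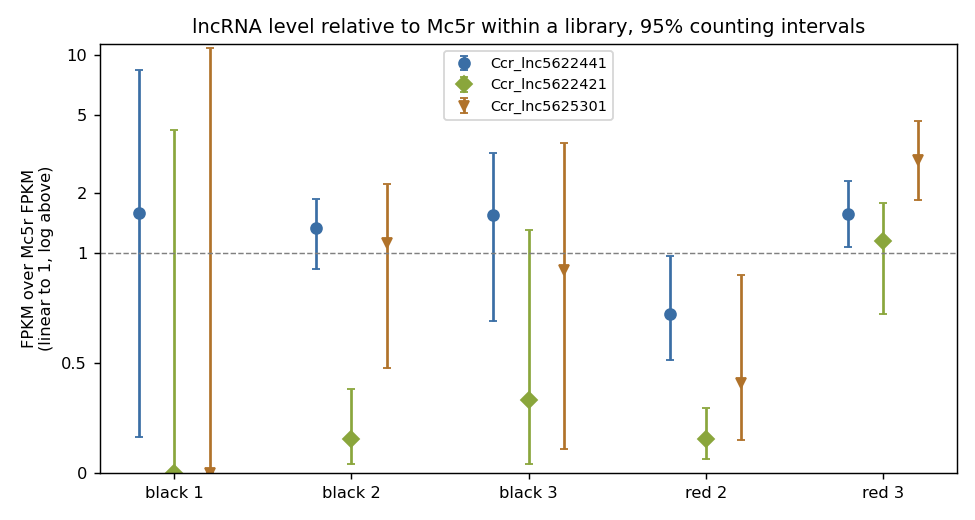
FPKM of each lncRNA divided by the FPKM of Ccr_5622451 in the same library (y axis, linear up to 1 and logarithmic above, dashed line at 1) for the 5 black and red libraries in which Ccr_5622451 was above 1 count, with 95% counting intervals. Ccr_lnc5622441 lies between 1.34 and 1.59 except in red 2 (0.721), and the other lncRNAs are highest in red 3.

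The study's enrichment lists give 2 further features with melanocortin receptor activity, TRINITY_GG_112640_c6_g2 and TRINITY_DN162289_c1_g1, and the annotation used here names no receptor subtype for them. Those lists cover only coding genes the study had called as differing among the colors of these libraries, and Ccr_112176121 is not on this one. The likeness of these 2 features to Ccr_5622451 is therefore no independent evidence. TRINITY_GG_112640_c6_g2 (1814 bp) had 0, 74.58 and 9.99 expected counts in black 1, black 2 and black 3, 0, 234.01 and 46.91 in red 1, red 2 and red 3, and 0, 0 and 2.05 in white skin. TRINITY_DN162289_c1_g1 had 0, 39.42 and 8.01 in black, 2, 59.06 and 18.09 in red, and 0, 6 and 1.95 in white skin. For either feature black 2, red 2 and red 3 were above the other libraries, and red 2 was the highest library, as for Ccr_5622451. Black 3 was lower, and the 95% counting intervals of its CPM ratio to white 3 included 1 for both features (0.907 to 40.0 and 0.68 to 32.9). Their FPKM correlated with that of Ccr_5622451 at r = 0.98 and r = 0.987. In replicate 2 red was 2.31-fold black for TRINITY_GG_112640_c6_g2 after TMM scaling (95% counting interval 1.77 to 3.04), and 1.12-fold for TRINITY_DN162289_c1_g1 (0.734 to 1.72). The counts of TRINITY_GG_112640_c6_g2 were not whole in any of the 5 libraries above 0, and those of TRINITY_DN162289_c1_g1 were not whole in 5 of 7. Part of the read pairs of both features was thus shared out by the authors' estimate. The 3 receptor features on this list, with Ccr_5622451, summed to 0.27 to 8.21 FPKM in black, 0.09 to 21.72 FPKM in red and 0 to 0.2 FPKM in white skin. All 3 were higher in red than in black in the quasi-likelihood fit and 0 of 3 were called, with a median log2 fold change of 0.88 against -0.02 over all features tested.

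The other coding genes that the study lists beside the same lncRNAs were at low levels in all colors. The feature named Nrg4, a ligand of the ErbB4 receptor, was at 0.03, 0.04 and 2.07 FPKM in black, 0, 0.38 and 2.36 FPKM in red, and 0.47, 0.11 and 1.84 FPKM in white skin. Replicate 3 was thus its high library in every color, with 84.73% of its counts, and white skin (0.807 ± 0.913 FPKM, SD, n = 3) was close to black (0.713 ± 1.18). Usp53, a member of the ubiquitin-specific protease family, stayed between 0 and 0.74 FPKM with each color including a library at 0. Their r with Ccr_5622451 was -0.002 and -0.168. In the carp gene table at hand (RefSeq, assembly ASM1834038v1), 2 genes, mc5ra and mc5rb, are named as this receptor, with mc2r, the adrenocorticotropin receptor gene, next to mc5rb. The expression tables do not say which of these either Mc5r feature is, and the assembly differs from the carp genome version the study used, so no coordinates are given.

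The pigment lists of the study gave the context of color for these libraries, and since the study chose their features from these same libraries, their direction is no independent evidence. Melanosomes are the organelles that hold melanin, and the 11 features under melanosome organization summed to 16.71, 237.73 and 22.82 FPKM in black 1, black 2 and black 3, to 0.82, 34.76 and 2.96 FPKM in red and to 2.68, 1.89 and 0.92 FPKM in white skin. In each same-numbered pair the melanosome sum was lower in red than in black, while within red skin red 2 was the highest library for it, as for Ccr_5622451. Of 8 tested red against black, 8 were lower in red and 0 were called (median log2 fold change -3.86, against -0.02 over all features). The 12 features under melanocyte differentiation summed to 7.66, 63.97 and 14.75 FPKM in black, 9.91, 161.99 and 59.71 FPKM in red and 6.17, 22.09 and 7.01 FPKM in white skin. Of 10 tested red against black, 9 were higher in red and 0 were called, with a median of 1.03. The 3 features under differentiation of xanthophores, the yellow to red pigment cells, were at 1.62, 23.27 and 5.14 FPKM in black, 2.46, 47.2 and 31.62 FPKM in red and 3.36, 16.82 and 4.97 FPKM in white skin, and 2 of these 3 are also on the melanocyte list. Of 3 tested red against black 3 were higher and 0 were called. The summed lists correlated with Ccr_5622451 at r = 0.99 for melanocyte differentiation, 0.937 for xanthophore differentiation, 0.784 for pigment granule dispersal, 0.327 for melanosome organization, 0.209 for melanogenesis and -0.231 for muscle (9 libraries each). By Spearman's rho the order differed, with 0.902 for pigment granule dispersal, 0.881 each for melanocyte differentiation and melanosome organization, 0.763 for xanthophore differentiation, 0.051 for melanogenesis and -0.051 for muscle. In summed FPKM red 1, in which Ccr_5622451 was at 0, was also the lowest red library on each of the melanosome, melanocyte, xanthophore and granule lists, and black 1 was the lowest black library on them. These sums are not scaled by the TMM factors, which were 0.71 in black 1 and 1.25 in black 3. The order of these 2 libraries on the melanosome and granule lists can turn with that scaling. How far the amount of pigment-cell RNA in a patch sets the level of Mc5r was not tested.

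**Figure D5:**
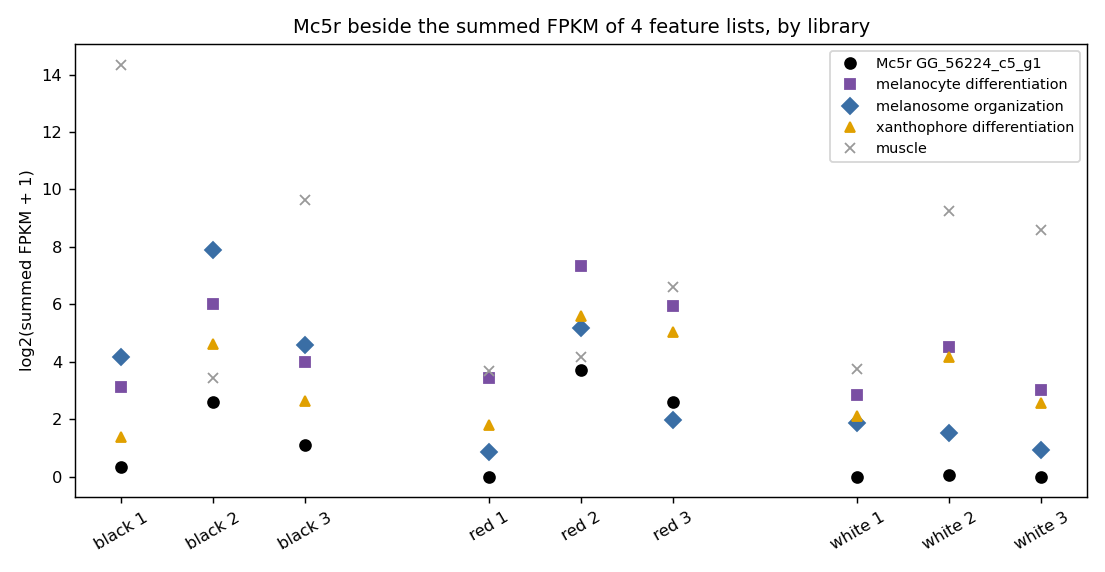
Level of Ccr_5622451 and summed FPKM of the features listed by the study under melanocyte differentiation, melanosome organization, xanthophore differentiation and muscle terms, each as log2(value + 1) (y axis), in the 9 libraries (x axis). In FPKM Ccr_5622451 had r = 0.99 with the melanocyte list and 0.327 with the melanosome list, but Spearman's rho was 0.881 with each. On the melanocyte list white 2 (22.09 FPKM) lies above black 1 and black 3 (7.66 and 14.75), unlike Ccr_5622451. The melanosome list is lower in red than in black in each same-numbered pair, and the muscle list is highest in black 1, at 20903.23 FPKM.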

How the data were processed

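Black, red and white Koi carp skin was sequenced as 3 libraries per color. The authors mapped reads to the common carp genome with TopHat2 2.0.10, assembled them with Trinity, and quantified the assembly with RSEM 1.2.21 (versions from the submitters' processing notes). The deposited expected counts, not normalized, were estimated by RSEM for each assembled gene. The deposited FPKM values are RSEM's, per kilobase of effective length. The deposited TPM values were read only to check their total. Other deposited columns give length and effective length in bp.

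Expected counts were rounded and tested with edgeR 4.0.16 (R 4.3.3): filterByExpr with a minimum count of 10, TMM factors, and the quasi-likelihood test on the 6 libraries of 2 colors, with Benjamini-Hochberg adjustment over all features tested. Following the study, a call needed an FDR no higher than 0.05 and a log2 fold change of 1 or more in either direction. Members under the filter were fitted without it. The SE given with a fitted log2 fold change was derived as its absolute value over the square root of the quasi-likelihood F statistic. Single values were compared by the exact permutation test. Counting intervals are exact binomial, at 95%. Floors are 3 counts, or 0.12 to 0.218 CPM per library. PCR duplicates were not removed by molecular identifiers, so intervals and floors cover counting error only. Alternatives were the replicate block, RLE size factors, no filter, DESeq2 1.42.0, the edgeR exact test, all 9 libraries in one fit, limma 3.58.1 on log2(FPKM + 1) and log2(FPKM + 0.1), and leaving out libraries or replicate numbers. The fit was also run on simulated black and white counts. That simulation held only features that passed the filter, so it does not cover the fit without the filter, from which the calls of Ccr_5622451 came.

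Black, white and red patches came from the same fish per the labels, and titles carry the numbers, but no source says that same-numbered libraries share a fish. Deviations from the color means correlated at 0.532 to 0.797 over the 9 same-numbered pairs and at -0.595 to 0.022 over the 18 others. The negative values are partly built in, because deviations within a color cancel out. Replicate number 2 also had longer fragments in every color, so a shared fish and a shared batch cannot be told apart. Libraries were compared by number on this footing, without a claim that they share a fish. P-values refer to these libraries only. In the quasi-likelihood fits the spread of a feature is estimated jointly with the other features fitted, so it changed with the filter. For Ccr_5622451 in red against black the SE was 1.59 with the filter and 0.880 without it. The FDRs of the fits without the filter therefore do not rest on the spread of that gene alone. The main fit and the exact permutation test treated the libraries as unpaired, and among the fits only the replicate block used the numbers.

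The members and lists were chosen with earlier results of these data known. Named features were the 5 members, the other features annotated with melanocortin receptor activity, Nrg4 and Usp53 from the table of neighbours, the top feature of each Trinity cluster, and the 2 features most alike to Mc5r. The receptor, pathway and muscle lists came from the study's enrichment tables, which cover only coding genes it had called in these libraries. The authors' own columns of comparisons were not used.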

Additional observations from a re-analysis of the deposited data

How the results depend on the processing

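The counts of called features depended on the filter and the test. With no filter 389, 355 and 346 features were called in black against white, red against black and red against white, with DESeq2 43, 33 and 58, and with the edgeR exact test 44, 24 and 53, against 0 in each as reported. Leaving out libraries or replicate numbers, with the filter kept, called 0 features in each comparison. The replicate block called 0 in each comparison with the filter, and 588, 766 and 602 without it. For Ccr_5622451 the block gave 7.75 (FDR 1.36e-07) in black against white, 0.76 in red against black and 8.70 (FDR 7.86e-15) in red against white, and it changed no call of a member.

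For Ccr_5622451 in black against white the call was lost with the edgeR exact test (7.55, FDR 0.133), with limma on log2(FPKM + 1) (1.33, FDR 0.855) and on log2(FPKM + 0.1) (3.61, FDR 0.877), and in the fit of all 9 libraries with the filter (7.59), an alternative chosen after seeing the data. Leaving out libraries gave 5.80 to 9.15, and the call was also lost without black 2 (FDR 0.599), without replicate 2 (FDR 0.313) and without replicate 3 (FDR 0.061). In red against white it was lost with limma (2.08, FDR 0.861, and 4.07, FDR 0.893) and in the fit of all 9 libraries with the filter (8.47), and leaving out libraries gave 7.51 to 10.06. On log2(FPKM + 0.1) the median of all features was itself -0.175 in black against white and -0.31 in red against white. In red against black leaving out libraries gave -0.07 to 2.76. There Ccr_lnc5622441 turned to -0.11 without red 3 and -0.40 without replicate 3 (range up to 2.00), and Ccr_lnc5625301 to -0.43 and -0.67 (range up to 3.64). The causes were not tested, but fewer libraries enter the last fits.

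The r of Ccr_5622451 ranged from 0.497 to 0.993 with Ccr_lnc5622421, 0.907 to 0.995 with Ccr_lnc5622441 and 0.549 to 0.879 with Ccr_lnc5625301 when 1 library was left out, and from 0.863 to 0.979 for Ccr_112176121 with Ccr_lnc5622441, whose Spearman's rho was 0.753. Without the 2 farthest libraries r was 0.987, 1.0 and 0.987 with Ccr_5622451, values that rest mostly on red 3. Depth limits the 4 features other than Ccr_5622451: their totals of 23.08 to 131.79 read pairs left white skin at 0, which allows up to 0.057 CPM.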

Other observations

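The features most like Ccr_5622451 in their pattern over the 9 libraries, by Pearson's r of log2(FPKM + 1) among 78846 features that passed the filter over all libraries, were TRINITY_GG_56840_c1_g1 (r = 0.993) and TRINITY_GG_138343_c0_g1 (r = 0.989). TRINITY_GG_56840_c1_g1, which the study lists under G protein-coupled receptor signaling, was at 0.27, 2.02 and 0.87 FPKM in black, 0.17, 3.54 and 2.03 FPKM in red and 0, 0.16 and 0 FPKM in white skin. TRINITY_GG_138343_c0_g1 was at 0, 0.76 and 0.22 FPKM in black, 0, 1.1 and 0.92 FPKM in red and 0 FPKM in every white library. In this order TRINITY_GG_112640_c6_g2 and TRINITY_DN162289_c1_g1, the other receptor features, stood at places 6 and 7, and the study had already called both as differing among the colors.

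The clusters around the 2 Mc5r genes differed in their other features. Cluster GG_56224 held 8 others, of which 6 were above 0, with at most 8 counts over all libraries. Its top feature by mean FPKM, TRINITY_GG_56224_c6_g1, rested on 1 read pair each in black 2 and red 2. Cluster GG_112176 held 42 others, of which 30 were above 0 and 26 were above 0 in white skin. Its top feature, TRINITY_GG_112176_c54_g1, had 13.42, 22.31 and 21.06 FPKM in black, 11.11, 31.15 and 21.06 FPKM in red and 24.57, 36.01 and 27.19 FPKM in white skin, so that white was highest in each replicate number, opposite to Ccr_112176121. The exact two-sided permutation test of black against white gave p = 0.1 for it, the smallest possible.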
